A study of Mus musculus with 96 samples.

Results

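The hairpins of let-7g, let-7i and mir-98 (identifiers MI0000137, MI0000138 and MI0000586) are 3 of the 1187 microRNA hairpins counted in mouse liver. They were chosen by identifier as hairpins that carry the let-7 seed and whose mature strand comes from a single locus. The rule itself uses no measured value, though earlier results of these data were known when they were chosen. Small RNA was sequenced from whole liver of 96 mice on the C57BL/6 background, aged 6 or 10 months, with both sexes in equal number (24 mice per sex and age). Knock-in mice carried 1 normal mouse Htt allele and 1 allele with a human HTT exon 1 repeat of 20, 50, 92 or 140 CAG (heterozygous Q20, Q50, Q92 and Q140), and a long repeat in this gene causes Huntington's disease. Wild-type (WT) littermates came from the Q20 and from the Q50 line. Each of the 24 groups, made by genotype and line, sex and age, held 4 mice, and WT of both lines and Q20 together were the 24 controls at each age. No WT littermates of the Q92 and Q140 lines are among these libraries, and the knock-in allele is present in every cell, not in the liver alone.

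Members of the let-7 family are among the oldest known microRNAs. They were found in the worm Caenorhabditis elegans as a switch of developmental timing, and in mammals they rise as cells differentiate and repress growth and fetal genes such as Lin28, Hmga2, Igf2bp family members and Ras genes. The mature 5p strand pairs with its target messages chiefly through the seed, bases 2 to 8. LIN28 binds the loop of many let-7 precursors in embryonic cells and blocks their maturation. In adult liver the family is abundant, and in mice forced let-7 expression lowers glucose tolerance.

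The mature 5p sequences are shown because the 3 members share their seed and differ in only a few later bases, where their reads can differ. How well the counts separate let-7g from let-7i was not tested. Capitals mark the seed, written 5′ to 3′ from RefSeq (GRCm38.p6).
let-7g-5p: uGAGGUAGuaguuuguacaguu
let-7i-5p: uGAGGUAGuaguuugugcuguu
miR-98-5p: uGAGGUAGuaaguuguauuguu
All 3 matched an entry by name. Counted from 1 at the 5′ end, let-7i differs from let-7g by A17G and A19U, so the first 16 bases are identical. The miR-98 strand differs from that of let-7g by G11A, U12G, C18U and A19U, and from that of let-7i by G11A, U12G, G17A and C18U. Each of these strands occurred in 1 of 1005 RefSeq mouse hairpins, while the seed GAGGUAG was shared by 13 of 1738 mature entries, or 11 of 1674 distinct sequences. Other strands with this seed, such as those of let-7b, let-7d and let-7e, were also listed at a single locus. The passenger strands have seeds of their own, again in capitals.
let-7g-3p: aCUGUACAggccacugccuugc
let-7i-3p: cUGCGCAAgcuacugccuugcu
miR-98-3p: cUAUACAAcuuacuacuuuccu
The values below are counts per hairpin, so reads of the 5p and 3p strands were not separated.

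The 3 hairpins lie on different chromosomes. The let-7g hairpin is at chr9:106178840-106178927 on the plus strand, in an intron of Wdr82, which encodes a subunit of a histone H3 lysine 4 methyltransferase complex. All 5 annotated transcripts of Wdr82 that span it have no exon there. The let-7i hairpin is at chr10:122985640-122985724 on the minus strand, within D630033A02Rik, annotated as a transcribed processed pseudogene on the same strand, and 1 of 2 transcripts has an exon over it. The mir-98 hairpin is at chrX:151913214-151913321 on the plus strand, in an intron of Huwe1, a ubiquitin ligase gene, and starts after a gap of 785 bases behind let-7f-2, with which it forms a cluster. The lengths recovered from the deposited values were 88, 85 and 108 nucleotides, the same as those of the RefSeq hairpins.

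The libraries held between 2195052 and 6662671 estimated counts, with a median of 5149567. In the edgeR and DESeq2 fits, 4 libraries at 10 months were left out for low connectivity with the others, while ratios and correlations were tested over all 96. The 4 were replicate 3 of the males among WT of the Q50 line and among WT of the Q20 line, and from Q92 replicate 1 of the females and replicate 2 of the males. The male libraries of Q92 and of WT of the Q20 line among these had the highest let-7g (6304 and 6231 CPM) and mir-98 (369.7 and 360.4 CPM) of all 10-month males. Levels below are given over all 96 libraries unless stated otherwise. The liver was not checked against marker microRNAs, because the files pair no names with identifiers. In whole tissue, fewer cells of a type and less RNA per cell cannot be told apart.

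Of the 3 members, let-7g was the most abundant. It had 4957 ± 608 CPM (counts scaled to the column sum of the library; SD, n = 96), ranked 26 of 1187 and took 0.492% of all counts. let-7i followed with 1687 ± 192 CPM (rank 41, 0.169%), and mir-98 had 283 ± 31.9 CPM (rank 92, 0.0280%). Per length, as the deposited FPKM, the order was the same, with 56333 ± 6913 for let-7g, 19848 ± 2260.5 for let-7i and 2620.4 ± 296 for mir-98 (SD, n = 96). The mean FPKM of let-7g was 2.84-fold that of let-7i, and the mean FPKM of let-7i was 7.57-fold that of mir-98. The range over mice was 2847 to 6772 CPM for let-7g, 1256 to 2368 for let-7i and 219 to 372 for mir-98, and these ranges did not overlap.

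The counts of mir-98 were whole in all 96 libraries (tolerance 0.0001), between 791 and 2240 per library. Those of let-7g and let-7i were not whole in 95 of 96 libraries each, with 13678 to 37075 and 4430 to 11974 estimated counts. No source used here states how fractions of a count arose, and their part in the values of let-7g and let-7i was not tested.

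Across the 24 groups the levels of each member lay close together. The group means of let-7g ran from 4538 CPM (WT of the Q50 line, 6-month females) to 5359.9 CPM (WT of the Q20 line, 6-month females), a 1.18-fold span. At 6 months, let-7g in females averaged 5212 ± 561 (Q140), 5062 ± 1676 (Q92), 4808 ± 1318 (Q50), 5336 ± 198 (Q20), 4538 ± 385 (WT of the Q50 line) and 5359.9 ± 255 (WT of the Q20 line) (CPM, mean ± SD, n = 4 in each group here and in the next sentences). In males of that age, let-7g averaged 4572 ± 699 (Q140), 5100.5 ± 472 (Q92), 5172 ± 659 (Q50), 5249.8 ± 367 (Q20), 5186 ± 146 (WT of the Q50 line) and 4627 ± 506 (WT of the Q20 line). The SD was largest in the Q50 and Q92 females, which hold the mice at the top of the whole range, and Q92 females also hold the lowest. Library names carry a tag (L5 to L8) of unstated meaning. Q92 females of 6 months had 5811 and 6767 CPM in L7, and 2847 and 4822 in L6. Q50 females had 6772 in L7, 4029 and 4063 in L6 and 4368 in L8. The 6-month females of WT of the Q20 line were all L7, those of WT of the Q50 line all L6. Differences between mice and between tags cannot be told apart here. At 10 months, let-7g in females averaged 4633 ± 105 (Q140), 4859.6 ± 316 (Q92), 5154 ± 589 (Q50), 4987 ± 429.9 (Q20), 4729.6 ± 539.8 (WT of the Q50 line) and 4934 ± 572 (WT of the Q20 line). In males of 10 months, let-7g averaged 4876 ± 254 (Q140), 5211 ± 803 (Q92), 4709 ± 297 (Q50), 4713 ± 386 (Q20), 4659.8 ± 179 (WT of the Q50 line) and 5288 ± 788 (WT of the Q20 line). Ordered from high to low, neighbouring groups of let-7g differed by less than the mean of their SDs in 23 of 23 pairs. Ordering itself keeps the gaps between neighbours small, so this count, here and for the other members, cannot show whether groups differ.

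The group means of let-7i ran from 1499 CPM (Q140, 6-month males) to 2047 CPM (Q92, 10-month females), a 1.37-fold span. At 6 months, let-7i in females averaged 1557 ± 101 (Q140), 1719 ± 116 (Q92), 1551 ± 117 (Q50), 1706 ± 62.1 (Q20), 1588 ± 123 (WT of the Q50 line) and 1755 ± 103 (WT of the Q20 line) (CPM, mean ± SD, n = 4). In 6-month males, let-7i averaged 1499 ± 61.2 (Q140), 1629 ± 405 (Q92), 1533 ± 135 (Q50), 1524 ± 84.5 (Q20), 1579.7 ± 155 (WT of the Q50 line) and 1512 ± 158 (WT of the Q20 line). In each genotype the female mean of let-7i was above the male mean at that age, with overlap between mice. At 10 months, let-7i in females averaged 1863 ± 53.1 (Q140), 2047 ± 236 (Q92), 1795 ± 142 (Q50), 1753 ± 70.0 (Q20), 1729 ± 84.2 (WT of the Q50 line) and 1801 ± 96.7 (WT of the Q20 line). In 10-month males, let-7i averaged 1792 ± 165 (Q140), 1762 ± 327 (Q92), 1668 ± 140.3 (Q50), 1712 ± 141 (Q20), 1588 ± 83.6 (WT of the Q50 line) and 1826 ± 134 (WT of the Q20 line). Neighbouring groups of let-7i differed by less than the mean of their SDs in 22 of 23 pairs, the other being Q92 against Q140 in 10-month females (a gap of 184 CPM against a mean SD of 145). That Q92 group holds a library left out of the fits, with 2368 CPM, the highest let-7i value of the series.

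The group means of mir-98 ran from 249 CPM (Q140, 10-month females) to 315 CPM (Q20, 6-month females), a 1.26-fold span. At 6 months, mir-98 in females averaged 304 ± 23.0 (Q140), 281 ± 38.5 (Q92), 288 ± 54.1 (Q50), 315 ± 21.6 (Q20), 288 ± 12.9 (WT of the Q50 line) and 293 ± 20.3 (WT of the Q20 line) (CPM, mean ± SD, n = 4). In 6-month males, mir-98 averaged 280.4 ± 18.3 (Q140), 315 ± 43.7 (Q92), 301 ± 23.7 (Q50), 296 ± 32.5 (Q20), 295 ± 14.2 (WT of the Q50 line) and 285 ± 39.2 (WT of the Q20 line). Of these groups, Q92 females alone had a higher mean at 10 months (283.3 CPM) than at 6 months (281.1 CPM) with column sums. Their 10-month mean holds a library left out of the fits, with 291.6 CPM. On the TMM scale used for the fits this rise was absent. The kept Q92 females there had 220 to 276 CPM at 10 months and 284 to 335 CPM at 6 months. At 10 months, mir-98 in females averaged 249 ± 21.9 (Q140), 283 ± 15.7 (Q92), 272 ± 12.2 (Q50), 269 ± 8.83 (Q20), 263 ± 28.6 (WT of the Q50 line) and 289 ± 28.5 (WT of the Q20 line). In 10-month males, mir-98 averaged 273 ± 25.4 (Q140), 281 ± 61.9 (Q92), 260.2 ± 12.9 (Q50), 279 ± 36.4 (Q20), 249 ± 15.6 (WT of the Q50 line) and 284 ± 51.9 (WT of the Q20 line). Neighbouring groups of mir-98 differed by less than the mean of their SDs in 23 of 23 pairs.

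**Figure D1:**
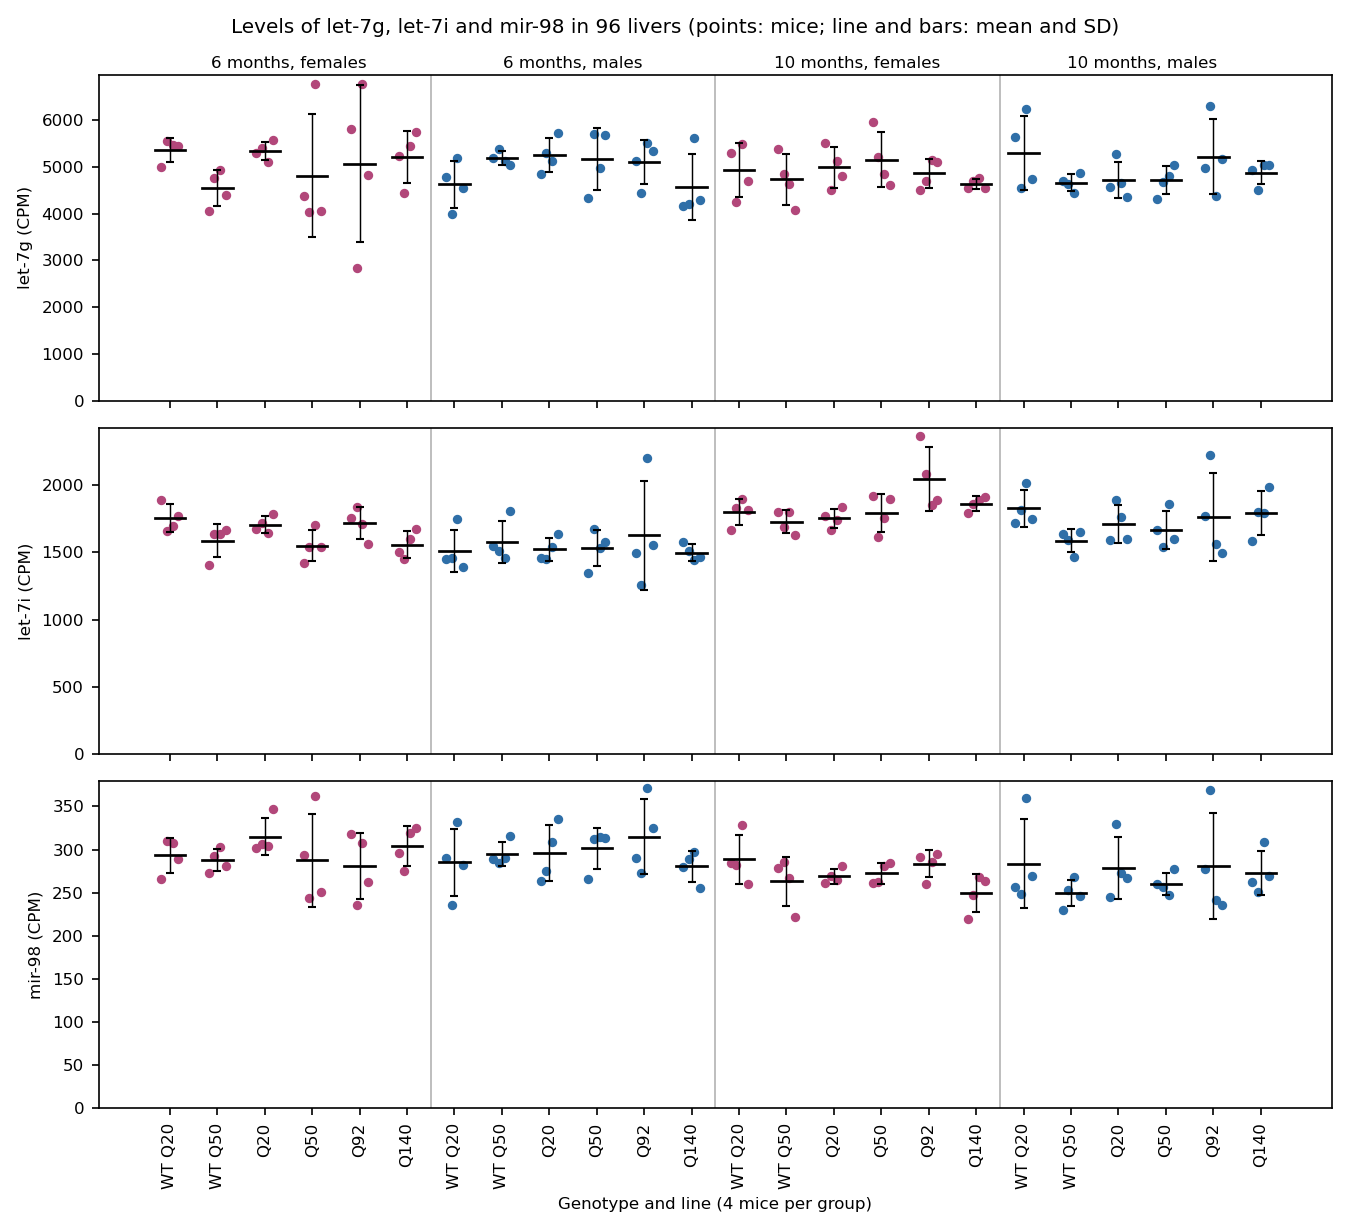
Level of each member (CPM of the column sum, y axis from 0) in the 24 groups, with 1 point per mouse and the mean and SD of 4 mice as a line and bars. The Q50 and Q92 females at 6 months show the widest spread of let-7g, up to 6772 and from 2847 CPM, and the highest let-7i group is Q92 at 10 months in females.

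Beside the median hairpin, the members varied little between mice of a group. The median coefficient of variation within groups was 8.94% for let-7g, 7.45% for let-7i and 8.32% for mir-98, beside 23.1% as the median over 366 hairpins that passed the abundance filter at both ages. Of these hairpins, 42 varied less than let-7g, 21 less than let-7i and 29 less than mir-98. The filter admits hairpins near 1 CPM, while the members rank 26, 41 and 92 of 1187 in abundance. Spread was not compared among hairpins of like abundance. Single groups were above that median: let-7g in Q50 females (27.4%) and Q92 females (33.1%) and let-7i in Q92 males (24.9%), all at 6 months. In the Q92 females let-7g was 5811, 2847, 6767 and 4822 CPM, in libraries tagged L7, L6, L7 and L6. In the same 4 mice, let-7i was 1757, 1841, 1711 and 1565 CPM, so the mouse that was lowest in let-7g was the highest in let-7i. For mir-98 they had 318, 236, 307 and 263 CPM, in the same order of mice as let-7g except for the top pair.

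The difference with the lowest adjusted p among these members was between the ages: mir-98 and let-7g were lower at 10 months than at 6 months with TMM scaling, and let-7i did not differ beyond its error. The leading numbers in the library names, of unstated meaning, form separate blocks at 6 and at 10 months. Age and the processing of libraries thus cannot be told apart. Median depth was 5149567 counts in females and 4259133 in males at 6 months, and 5837609 and 5186571 at 10 months. Levels for this comparison are CPM with TMM scaling over both ages, in the 92 libraries kept. At 6 months mir-98 was 232, 304 and 366 CPM in females (lowest, median and highest, n = 24) and 254, 307 and 344 CPM in males (n = 24). At 10 months it was 206, 264 and 301 CPM in females (n = 23) and 221, 252 and 303 CPM in males (n = 21). The ranges overlapped, but 44 of 44 mice at 10 months were under the 6-month mean of their sex. The fitted difference of mir-98 was -0.27 ± 0.027 (log2, SE), 0.83-fold the 6-month level (adjusted p = 3.99e-15, edgeR quasi-likelihood test with Benjamini-Hochberg adjustment over 408 hairpins).

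let-7g was 3475, 5190.2 and 6854 CPM in females and 4300.2, 5293 and 5789 CPM in males at 6 months (lowest, median and highest on the same scale). At 10 months let-7g was 3963, 4608 and 5827 CPM in females and 3978, 4635 and 5336 CPM in males. Many mice of both ages shared the same range, and 39 of 44 mice at 10 months were under the 6-month mean of their sex. The difference of let-7g was -0.16 ± 0.033 (log2, SE), 0.892-fold (adjusted p = 8.60e-06, edgeR). let-7i was 1496, 1669.8 and 2246 CPM in females and 1467, 1599.9 and 1951 CPM in males at 6 months. At 10 months let-7i was 1600.5, 1724 and 1874 CPM in females and 1524, 1635 and 1788 CPM in males. The let-7i ranges lay over each other at both ages, and the difference was 0.017 ± 0.019 (log2, SE; adjusted p = 0.471, edgeR).

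Of the 3 members, 2 thus passed, both as lower, where 27% of all tested hairpins were lower, 31.6% were higher and 58.6% differed in either direction (239 of 408). The size of these differences depended on the scaling. With the column sums alone, the median hairpin was 0.13 (log2) higher at 10 months, against 0.013 with TMM. On that scale mir-98 was still lower (-0.15 ± 0.029, adjusted p = 7.81e-06), let-7g did not pass (-0.048 ± 0.037, adjusted p = 0.261) and let-7i passed as higher (0.14 ± 0.026, adjusted p = 2.93e-06; all edgeR). With column sums, 40 of the 44 kept 10-month mice were under the 6-month mean of their sex for mir-98. For let-7g 29 of 44 were, and for let-7i 4 of 44. Relative to the median hairpin the members were in the same place with either scaling: let-7g at -0.18 with TMM and -0.18 with column sums, let-7i at 0.0038 and 0.0079, and mir-98 at -0.28 and -0.28 (log2). A change of scaling moves all hairpins nearly alike, so this sameness follows from the calculation and does not settle which scaling holds. No direction of a member turned between these scalings. The 10 most abundant hairpins took 74.9 ± 1.40% of counts at 6 months and 73.9 ± 1.29% at 10 months (SD, n = 48 each).

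The age difference of mir-98 and let-7g passed in each sex on its own. In females alone mir-98 differed by -0.25 ± 0.042 and let-7g by -0.16 ± 0.051 (log2, SE; adjusted p = 4.17e-06 and 0.0113, edgeR). In males alone the values were -0.29 ± 0.038 and -0.17 ± 0.037 (adjusted p = 1.93e-08 and 0.000200, edgeR). The library names in the labels carry a tag from L5 to L8, called the L tag here, and the labels do not say what it stands for. With the L tag as a term, mir-98 was at -0.29 ± 0.033 and let-7g at -0.12 ± 0.038 (adjusted p = 1.55e-12 and 0.00598, edgeR). A tag is not known to mean the same run at both ages, and L5 occurs at 10 months alone. The fit with the tag therefore cannot separate age from how the libraries were run. These 3 fits were added after seeing the data.

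**Figure D2:**
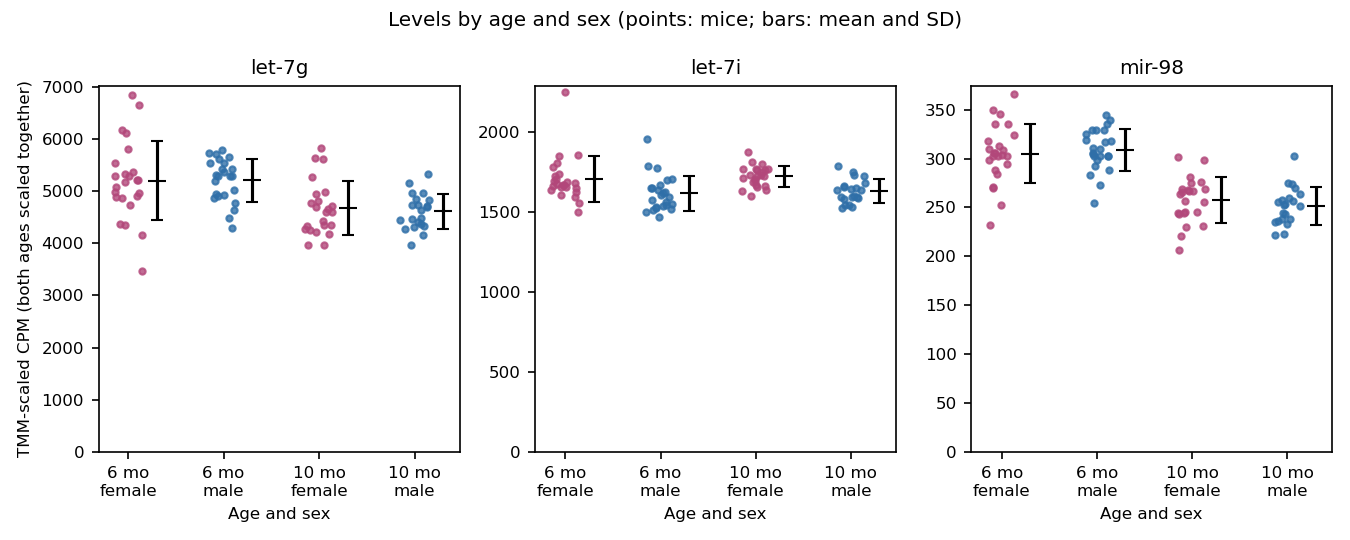
TMM-scaled CPM (y axis from 0) of each member by age and sex in the 92 libraries kept, with 1 point per mouse and the mean and SD beside each column. The 10-month columns of mir-98 (means 257 and 252) lie under its 6-month columns (means 305 and 309), while those of let-7i lie level with them.

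Between the sexes, let-7i was slightly lower in males, and let-7g and mir-98 did not differ beyond their error. At 10 months let-7i was 1613, 1822 and 2368 CPM in females (lowest, median and highest, column sums, n = 24) and 1467, 1693 and 2221 CPM in males (n = 24). The sexes overlapped over most of this range, and 17 of the 21 males kept in the fit were under the mean of females. The difference was -0.076 ± 0.023 (log2, male minus female, SE), 0.949-fold (adjusted p = 0.00643, edgeR, 383 hairpins). At 6 months let-7i was 1404, 1665 and 1892 CPM in females and 1256, 1510.1 and 2204 CPM in males (n = 24 each). Here 21 of 24 males were under the mean of females on the TMM scale, and the difference of -0.058 ± 0.034 did not pass (adjusted p = 0.169, edgeR, 374 hairpins).

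So 0 of 3 members passed for sex at 6 months, where 38.2% of hairpins did, and 1 of 3 passed at 10 months, as lower, where 45.2% did and 23.2% were lower. The call for let-7i rested on the scaling: with DESeq2 size factors in edgeR its difference at 10 months was -0.039 (adjusted p = 0.174), and with the column sums alone it passed at both ages, at -0.089 and -0.096 (adjusted p = 0.0395 and 0.00217). Relative to the median hairpin, let-7i was at -0.059 with TMM and -0.059 with DESeq2 size factors at 10 months, again the same by calculation. Within the L tags at 10 months it was -0.093 in L5, -0.016 in L6 and -0.055 in L7, none of which passed (adjusted p = 0.197, 0.751 and 0.713, edgeR). At 6 months it was -0.080 in L6 and -0.050 in L7, and neither passed. Leaving out 1 library ended the call at 10 months for 10 of 44 libraries, with values of -0.058 to -0.050 (adjusted p = 0.0542 to 0.0815, edgeR). These were replicates 1 and 4 of the Q92 males, replicate 2 of the Q92 females, replicate 2 of the Q50 and of the Q140 males, replicate 4 of the Q50 females, replicates 3 and 4 of the Q140 females, replicate 4 of the Q20 males and replicate 1 of the females of WT of the Q50 line. At 6 months, leaving out 1 library gave let-7i a call for 15 of 48 libraries, with values of -0.11 to -0.082 (adjusted p = 0.00739 to 0.0337, edgeR). Among females these were all 4 replicates of Q20, replicates 1 and 3 of Q140, replicates 2 and 3 of Q92, replicate 2 of Q50, replicate 3 of WT of the Q20 line and replicate 1 of WT of the Q50 line. Among males they were replicate 3 of Q20, replicate 3 of Q50 and replicates 1 and 4 of Q92.

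let-7g was 2847, 5167 and 6772 CPM in females and 3987, 5125 and 5727 CPM in males at 6 months, and its spread was wider in females. At 10 months let-7g was 4067, 4783 and 5961 CPM in females and 4319, 4779 and 6304 CPM in males. The fitted differences of let-7g were 0.0089 ± 0.045 at 6 months and -0.012 ± 0.040 at 10 months (log2, SE; adjusted p = 0.905 and 0.827, edgeR). For mir-98, which lies on the X chromosome, females had 236, 299 and 362 CPM and males 236, 290.0 and 372 CPM at 6 months. At 10 months females had 219, 268 and 328 CPM of mir-98 and males 230.2, 261 and 369.7 CPM. Its differences were 0.028 ± 0.042 and -0.023 ± 0.036 (adjusted p = 0.661 and 0.643, edgeR), and the signs of both members turned with the scaling. A change of the sex difference with age was not detectable: the interaction was -0.021 ± 0.065 for let-7g, -0.0023 ± 0.038 for let-7i and -0.054 ± 0.054 for mir-98 (log2, SE). No member passed for it (adjusted p of 0.711 or above with edgeR, none at an unadjusted p under 0.05, and none with DESeq2), and 0% of 408 hairpins did with edgeR (53 at an unadjusted p under 0.05, and 2 passed with DESeq2). The sign of the interaction turned with the scaling for let-7g and let-7i.

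Ratios between members within a library do not depend on how libraries are scaled, and 12 such comparisons were made. In those between ages, too, age and the processing of libraries cannot be told apart. The ratio of let-7i to mir-98 counts was 4.71, 5.51 and 7.80 in females at 6 months (lowest, median and highest, n = 24) and 5.77, 6.62 and 8.16 in females at 10 months (n = 24). In males it was 4.60, 5.20 and 6.18 at 6 months and 5.48, 6.40 and 7.54 at 10 months (n = 24 each). The ranges overlapped, but all 24 females and all 24 males of 10 months were above the 6-month mean of their sex. The ratio was higher at 10 months by 0.27 ± 0.045 (log2, SE) in females and 0.29 ± 0.034 in males (p = 2e-05 each, the smallest these 100000 permutations can give, two-sided; 0.00012 after adjustment over 12 tests).

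The ratio of let-7i to let-7g was 0.252, 0.324 and 0.646 in females and 0.257, 0.301 and 0.400 in males at 6 months. At 10 months it was 0.310, 0.376 and 0.526 in females and 0.289, 0.354 and 0.400 in males (n = 24 each). The highest value at 6 months belonged to the Q92 female with the lowest let-7g level. The ratio was higher at 10 months by 0.19 ± 0.065 in females and 0.18 ± 0.042 in males (log2, SE; adjusted permutation p = 0.0114 and 0.000640), with 20 and 22 of 24 mice above the 6-month mean. Within L tags the male difference was 0.15 (adjusted p = 0.00927, permutation within tags), and the female one was 0.13 and no longer passed (adjusted p = 0.155). The same within-tag values for let-7i to mir-98 were 0.27 in females and 0.31 in males, both of which passed. Since a tag is not known to mean the same run at both ages, within-tag age values do not hold the run constant.

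let-7g and mir-98, both lower at 10 months on the TMM scale (let-7g did not pass with column sums), differed in ratio as well. The ratio of let-7g to mir-98 was 14.6, 16.7 and 19.2 at 6 months and 15.9, 18.1 and 22 at 10 months in males, and 12.1, 17.3 and 22 and 15, 17.9 and 22.8 in females (n = 24 each). It was higher at 10 months by 0.11 ± 0.034 in males (log2, SE; adjusted permutation p = 0.00726) and by 0.086 ± 0.044 in females, which did not pass (adjusted p = 0.0717). Within L tags it passed in males and females, at 0.16 and 0.15 (adjusted permutation p = 0.000480 and 0.0102), with the same limit of the tags. Between the sexes, the ratio of let-7i to mir-98 was lower in males at 6 months, with a mean of 5.24 ± 0.388 against 5.63 ± 0.699 (SD, n = 24 each), by -0.099 ± 0.040 on the log2 scale (adjusted permutation p = 0.0308). At 10 months the difference of -0.083 did not pass (adjusted permutation p = 0.0633). The other sex differences in ratios, of let-7i to let-7g (-0.089 and -0.095 at 6 and 10 months) and of let-7g to mir-98 (-0.0094 and 0.013), did not pass either.

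**Figure D3:**
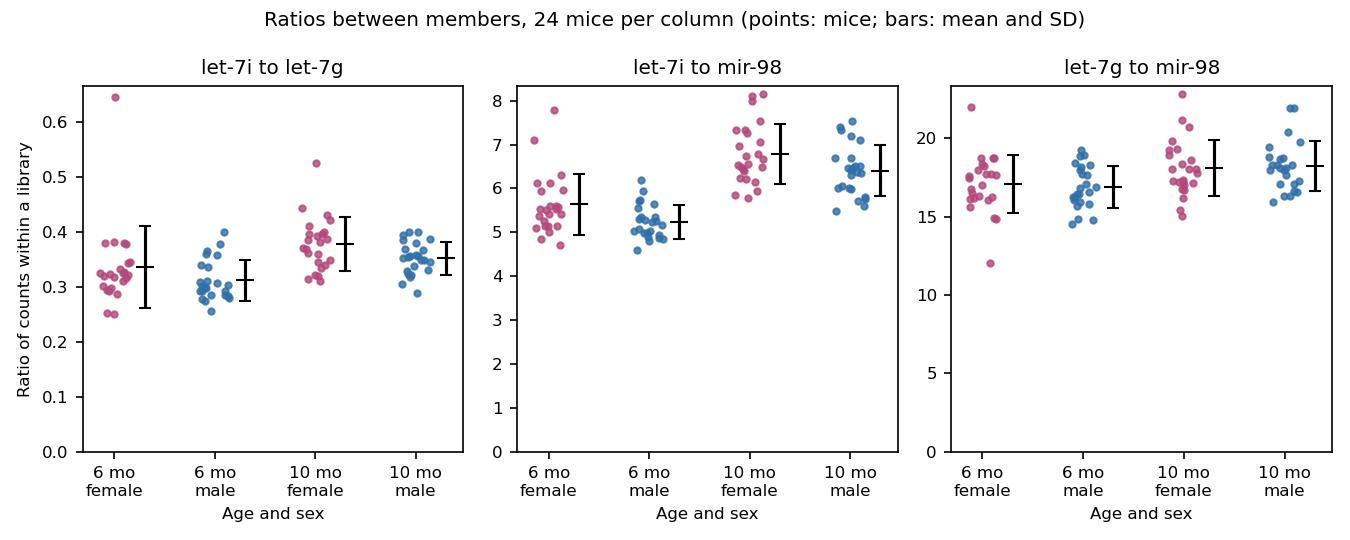
Ratio of the estimated counts of a pair of members within each library (y axes from 0) by age and sex, all 96 libraries, with the mean and SD of 24 mice beside each column. The ratio of let-7i to mir-98 averages 5.63 and 5.24 in females and males at 6 months and 6.79 and 6.41 at 10 months.

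The design asks whether liver microRNAs follow the length of the CAG repeat in Htt, and for these 3 members no comparison passed. Controls at 6 months had 1395, 1639 and 1892 CPM of let-7i (lowest, median and highest, n = 24), and Q92 mice had 1256, 1638 and 2204 CPM (n = 8). The range was 1348 to 1704 CPM in Q50 and 1441 to 1675 CPM in Q140 (n = 8 each). Each genotype overlapped the controls, and Q92 reached both below and above them. Q92 mice gave the largest fitted difference of any genotype comparison here, 0.12 ± 0.047 (log2, SE), with 5 of 8 mice over the control mean for their sex, and it did not pass (unadjusted p = 0.0117, adjusted p = 0.439, edgeR). At that comparison 0 of 3 members and 0.267% of hairpins passed. At 10 months let-7i in Q92 mice differed from controls by 0.0086 ± 0.036, with 1.04% of hairpins called (0.783% as higher).

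In Q140 mice, which carry the longest repeat, let-7i was 1586, 1832 and 1989 CPM at 10 months against 1467, 1745 and 2018 CPM in controls, a difference of 0.051 ± 0.031 (log2, SE). let-7g was 4501, 4720.2 and 5037 CPM in Q140 against 4067, 4723 and 6231 CPM in controls (-0.053 ± 0.054). For mir-98 the levels were 219, 263 and 309 CPM in Q140 and 222, 267 and 360.4 CPM in controls (-0.067 ± 0.049). Over all libraries, the Q140 mice lay inside the range of the controls for let-7i and let-7g, and all but the lowest did for mir-98. Both ends of the let-7i range of controls, 1467 and 2018 CPM, were libraries left out of the fits. The kept controls ran from 1594 to 1895 CPM of let-7i, and Q140 mice reached below and above them. None of the 3 differences passed (adjusted p = 0.449, 0.691 and 0.561, edgeR), where 1.31% of hairpins were called. At 6 months the Q140 differences were -0.046 ± 0.047 for let-7i, 0.031 ± 0.064 for let-7g and 0.026 ± 0.059 for mir-98, with 0% of hairpins called.

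In the remaining genotype comparisons no member passed either. Q92 mice at 6 months differed by 0.073 ± 0.064 for let-7g and 0.060 ± 0.059 for mir-98, and at 10 months by 0.0042 ± 0.062 and -0.0013 ± 0.056 (log2, SE). The let-7g range of the 8 Q92 mice at 6 months, 2847, 5233 and 6767 CPM, was wider than the 3987, 5127 and 5727 CPM of the 24 controls. Q50 mice differed from controls by -0.031 to 0.032 over the 3 members and both ages, with 0% of hairpins called at either age. Against WT of their own line, Q20 mice differed by -0.018 to 0.059 and Q50 mice by -0.0024 to 0.030, again with 0% of hairpins called at both ages. These comparisons share control mice with each other, so their values are not independent.

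As a slope on CAG length over all mice of an age, let-7g changed by 0.037 ± 0.045 per 100 repeats at 6 months and -0.034 ± 0.039 at 10 months (log2, SE). The slopes of let-7i were 0.0072 ± 0.037 and 0.035 ± 0.023, and those of mir-98 were 0.033 ± 0.042 and -0.040 ± 0.036. None of the 3 members passed at 6 months, where 0% of hairpins did, or at 10 months, where 2.09% did (1.83% as higher), or with both ages combined, where 0.546% did (combined Z of -0.019 for let-7g, 1.21 for let-7i and -0.22 for mir-98). The slopes of let-7g and mir-98 had opposite signs at the 2 ages. The difference between ages, tested in a fit added after seeing the data, was -0.074 ± 0.066 for let-7g, -0.0036 ± 0.039 for let-7i and -0.11 ± 0.053 for mir-98 per 100 repeats, and none passed (adjusted p = 0.667, 0.995 and 0.442, edgeR; 0% of hairpins). Over the 13 comparisons of genotype and CAG length, 0 of 39 member tests passed with edgeR and 0 with DESeq2, and 1 had an unadjusted p under 0.05 with each.

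**Figure D4:**
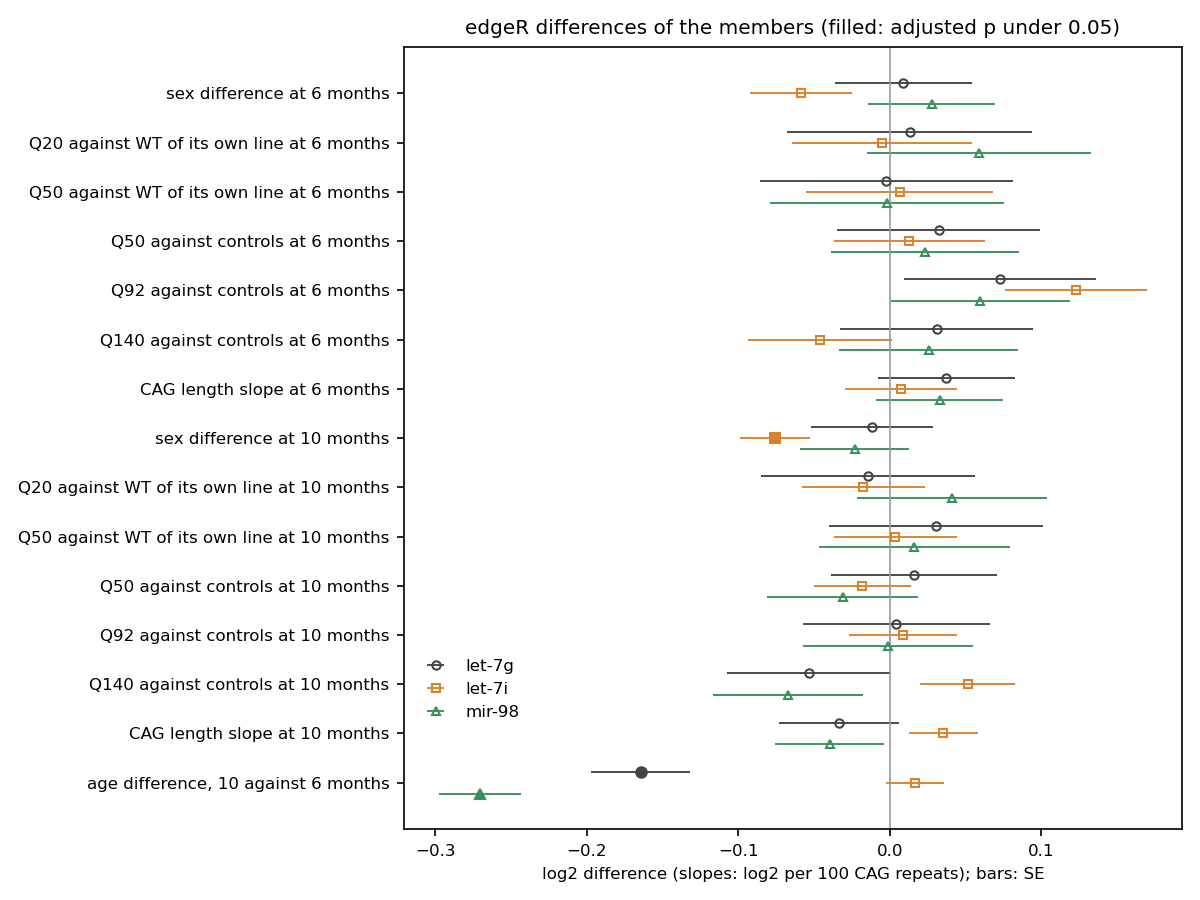
Fitted difference of each member in the comparisons tested (x axis, log2; slopes are per 100 CAG repeats), with the SE as bars and filled symbols where the adjusted p was under 0.05. Only let-7g and mir-98 for age and let-7i for sex at 10 months are filled, and every genotype comparison and slope lies between -0.067 and 0.12.

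Across livers of the same sex and age, let-7g and mir-98 were correlated at 6 months. In the 24 females Pearson's r of their log2(CPM + 1) was 0.84 and Spearman's rho 0.89 (permutation p = 1e-05 each, the smallest these permutations can give, and 0.000120 and 0.000120 after adjustment over 12 relations). In the 24 males r was 0.72 and rho 0.69 (adjusted permutation p = 0.000400 and 0.00124). Without the 2 mice farthest from the median of let-7g, r was 0.76 in females and 0.65 in males. Within L tags it was 0.75 and 0.59 (adjusted permutation p = 0.000480 and 0.0103), and with TMM-scaled levels 0.68 and 0.56. Both members share the column sum of their library as a divisor.

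At 10 months the call in females depended on the scaling, and in males the relation rested on 2 libraries. In females r was 0.38 and rho 0.19 (adjusted permutation p = 0.0981 and 0.413, n = 24), which did not pass. With TMM-scaled levels r in these females was 0.49 and passed (adjusted permutation p = 0.0317), and within L tags it was 0.050 (adjusted permutation p = 0.824). In males r was 0.73 and rho 0.47 (adjusted p = 0.00101 and 0.0389, permutation test), but r fell to 0.34 without the 2 mice farthest in let-7g, which are replicate 2 of Q92 and replicate 3 of WT of the Q20 line, both left out of the fits. These were also the 2 shallowest libraries, with 2385760 and 2195052 counts. Whether the relation differed between ages was not tested.

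The relations of let-7i with the other members were less even. With mir-98, r was 0.76 and rho 0.71 in 6-month males (adjusted permutation p = 0.000180 and 0.00124, n = 24), 0.68 without the 2 farthest mice and 0.69 within L tags. In 10-month males r was 0.69 and rho 0.51 (adjusted permutation p = 0.000660 and 0.0318), and 0.41 without the 2 farthest mice, again the 2 shallowest libraries. In females r was 0.21 at 6 months and 0.29 at 10 months, and neither passed (adjusted p = 0.345 and 0.218, permutation test). With let-7g, r was 0.26 and -0.057 in females at 6 and 10 months, and rho 0.51 and -0.082, of which the rho at 6 months passed (adjusted permutation p = 0.0318). In males r with let-7g was 0.45 at 6 months and 0.64 at 10 months, and rho 0.46 and 0.46 (adjusted permutation p of r = 0.0373 and 0.00200, of rho = 0.0389 each). These fell to 0.40 and 0.30 without the 2 farthest mice, and with TMM-scaled levels to 0.023 and 0.34, which no longer passed.

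**Figure D5:**
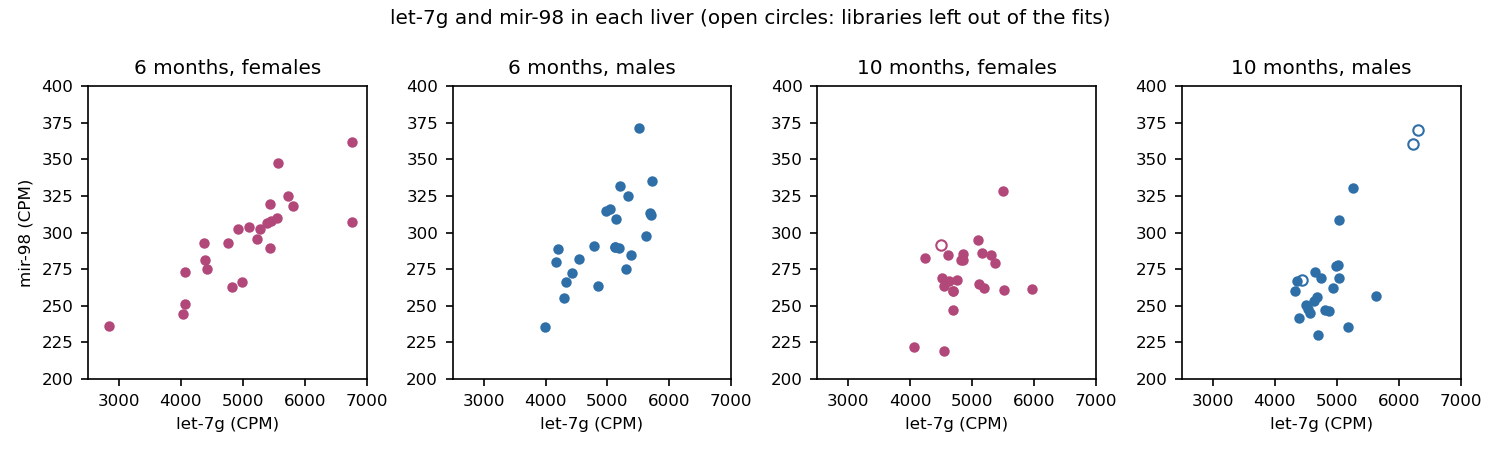
mir-98 against let-7g (both CPM of the column sum) in each of the 4 sets of 24 livers, with open circles for the 4 libraries left out of the fits. At 6 months the points rise together in both sexes (r of 0.84 and 0.72), and in 10-month males the open circles at 6304 and 6231 CPM of let-7g stand apart at the top.

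Over the 24 group means of log2(CPM + 1), each member was compared with 363 hairpins that passed the filter at both ages. The hairpin most like let-7i was MI0000560 (95 nucleotides, r of 0.91), and 135 hairpins had an r over 0.5 with it. The hairpin most like let-7g was MI0000151 (68 nucleotides, r of 0.69), with 10 hairpins over 0.5. For mir-98 it was MI0000692 (80 nucleotides, r of 0.75), with 21 over 0.5. Among the members, let-7g and mir-98 had an r of 0.58, let-7g and let-7i 0.12, and let-7i and mir-98 -0.32. These group means share the 2 ages and sexes and the scaling by column sums, so they are descriptions without a test. Whether these other hairpins carry the let-7 seed could not be looked up, since the identifiers have no names here.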

How the data were processed

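Small RNA libraries of 96 livers were sequenced by the authors, whose notes name CASAVA 1.8.2, and clipped reads were aligned with STAR to mm10 and counted per hairpin with HTSeq. The release of the hairpin annotation was not named in what was read here. The deposited estimated counts per hairpin were not whole for 11306 of 53722 values above 0 and were rounded for the tests. FPKM values, which the authors had scaled by length and library, were deposited beside them and used for levels per length and to recover hairpin lengths. Levels are CPM of the column sums.

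Tests used edgeR 4.0.16 (quasi-likelihood, TMM, R 4.3.3) on hairpins with at least 1 CPM in 8 or more libraries, with Benjamini-Hochberg adjustment over all of them and a threshold of 0.05. Within an age the model held genotype, sex and the L tag in the library names (L5 to L8, of unstated meaning), over both ages it held sex, age and genotype, and WT was given 7 repeats for the slope. A standardized connectivity under -5 removed 4 libraries, all of 10-month mice, from the edgeR and DESeq2 fits. DESeq2 1.42.0 was an alternative. Ratios and correlations used permutation tests (100000 resamples, with scipy 1.17.1 for ratios and direct permutation for correlations and within L tags). No pair of the 144 within groups had identical values. Replicates are separate mice. Alternatives were another scaling, no filter, no L tag, all libraries, a replicate block, other controls and each library left out. Added after seeing the data were genotype comparisons, slopes, ratios and correlations within L tags, age in each sex and with the L tag, slope by age, and the far mice on the TMM scale. The sex differences within L tags were planned. Scripts were tested on simulated data. Members and lists were chosen with earlier results of these data known. The other let-7 hairpins and cell type marker lists were not used here, because identifiers could not be matched to names, and the members rest on their identifiers and recovered lengths. The 3 hairpins most like each member were ranked, and the first is named.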

Additional observations from a re-analysis of the deposited data

Results flagged for a closer look

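Of 72 sets of 4 mice (3 members in 24 groups), 5 held a mouse that stood far from the other 3 of its group in CPM of the column sums by Dixon's test, where chance flags about 1 in 20 sets. Q140 6 months male replicate 3 had 5617 CPM of let-7g, above the other 3 at 4166 to 4299.6. Q50 6 months female replicate 3 had 6772 CPM of let-7g, above the other 3 at 4029 to 4368. WT of the Q50 line 6 months female replicate 1 had 1404 CPM of let-7i, below the other 3 at 1637 to 1669. Q20 6 months female replicate 4 had 347 CPM of mir-98, above the other 3 at 302 to 306. Q50 6 months male replicate 1 had 266 CPM of mir-98, below the other 3 at 312 to 315. All 5 were at 6 months, and none of these libraries was left out of the fits. The Q140 male was the only L7 library of its group beside L6, and the Q50 female the only L7 beside L6 and L8. The Q50 male was the only L8 library beside L7. The groups of the WT and the Q20 female each held a single tag. A part of the tag in these values was not tested. On the TMM scale, looked at after seeing the data, 1 of the 5 stood as far apart, the Q20 female (346 CPM of mir-98 beside 303 to 308). In Q140 females, all 4 mice at 6 months were under the mean of control females in let-7i with column sums, by 126 CPM on average (a difference of -126), and all 4 at 10 months were above it, by 102 CPM. Of 36 such pairs of groups examined, this was the 1 with every mouse on opposite sides, and the difference between the ages was not tested for it. On the TMM scale this did not hold, with 3 of the 4 Q140 females under the control mean at 6 months and 3 of the 4 above it at 10 months.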

How the results depend on the processing

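Of 540 values of the members under alternatives other than leaving out a library, 445 kept their direction and side of the threshold, 15 lost a call, 5 gained one and 75 changed sign, none of the latter past the threshold before or after. The causes were not tested. The lower let-7i in males at 10 months (edgeR quasi-likelihood test, log2 values throughout) lost its call with DESeq2 size factors, -0.039 (adjusted p = 0.174), the DESeq2 Wald test, -0.039 (adjusted p = 0.135), no abundance filter, -0.072 (adjusted p = 0.116), and within L tags L5, L6 and L7, -0.093, -0.016 and -0.055, where fewer libraries enter. It gained a call at 6 months with column sums alone, -0.089 (adjusted p = 0.0395). For age, column sums alone ended the call of let-7g, -0.048 (adjusted p = 0.261), and gave let-7i one, 0.14 (adjusted p = 2.93e-06), as did no abundance filter, 0.063 (adjusted p = 0.0383).

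Sign changes of values that passed neither way were as follows. With column sums alone, let-7g -0.025 and mir-98 -0.0029 for sex at 6 months, let-7g -0.030 for Q20 against its WT at 6 months, let-7i -0.0050 for Q50 against its WT at 6 months, let-7i -0.00049 for CAG slope at 6 months, let-7g -0.00033 for Q50 against controls at 10 months, mir-98 0.013 for Q92 against controls at 10 months, let-7i 0.00013 for sex by age interaction, let-7g 0.45 and mir-98 0.33 for the combined CAG slope (Z). With DESeq2 size factors in edgeR, let-7i -0.0074 for Q50 against its WT at 6 months, let-7i -0.0025 for Q50 against controls at 6 months, let-7g 0.025 and mir-98 0.014 for sex at 10 months, let-7g -0.0051 for Q92 against controls at 10 months, let-7g 0.024 and let-7i 0.044 for sex by age interaction, let-7g 0.062 for the combined CAG slope (Z). With the DESeq2 Wald test, let-7i -0.0075 for Q50 against its WT at 6 months, let-7i -0.0026 for Q50 against controls at 6 months, let-7g 0.025 and mir-98 0.015 for sex at 10 months, let-7g -0.0052 for Q92 against controls at 10 months, let-7g 0.024 and let-7i 0.044 for sex by age interaction, let-7g 0.063 for the combined CAG slope (Z). With no abundance filter, let-7g -0.0085 for sex at 6 months, let-7i 0.012 for Q20 against its WT at 6 months, let-7g 0.00095 and mir-98 0.0021 for Q50 against its WT at 6 months, let-7g 0.048 for the combined CAG slope (Z). With all libraries kept, let-7g 0.012 for sex at 10 months, mir-98 -0.0074 for Q20 against its WT at 10 months, let-7g -0.033 and mir-98 0.0021 for Q92 against controls at 10 months, let-7g 0.065, let-7i 0.053 and mir-98 0.041 for sex by age interaction. Without the L tag, let-7g 0.048, let-7i -0.025 and mir-98 0.028 for Q50 against its WT at 6 months, let-7i -0.022 for Q50 against controls at 6 months, let-7g -0.026 for Q140 against controls at 6 months. Within L tag L5, let-7g 0.061 and mir-98 0.027 for sex at 10 months, let-7g 0.012 for Q140 against controls at 10 months, let-7g 0.0037 for CAG slope at 10 months. Within L tag L6, let-7g -0.052 and mir-98 -0.00051 for Q92 against controls at 6 months, let-7g -0.0098 and let-7i 0.037 for Q140 against controls at 6 months, let-7g -0.0096 for CAG slope at 6 months, let-7g -0.044 and let-7i 0.016 for Q50 against controls at 10 months, let-7g -0.10 for Q92 against controls at 10 months. Within L tag L7, let-7g -0.053 for sex at 6 months, let-7i -0.0060 for Q50 against controls at 6 months, let-7i -0.013 for CAG slope at 6 months, let-7g 0.17 and mir-98 0.079 for sex at 10 months, let-7g 0.069 for CAG slope at 10 months. With WT alone as controls, let-7i -0.016 for Q50 against controls at 6 months, mir-98 0.036 for Q92 against controls at 10 months. With Q20 alone as controls, let-7g -0.0075 and let-7i -0.0085 for Q92 against controls at 10 months. With WT left out of the slope, let-7i -0.0083 for CAG slope at 6 months, let-7g 0.23 for the combined CAG slope (Z). With only that genotype and the controls in the model, let-7i -0.011 for Q50 against controls at 6 months, let-7g -0.013 for Q92 against controls at 10 months. Within L tags, the values that changed call or sign were 0.13 for let-7i to let-7g for age in females, 0.15 for let-7g to mir-98 for age in females, -0.24 for let-7i and let-7g in 6 months females, 0.11 for let-7i and let-7g in 6 months males and -0.12 for let-7i and mir-98 in 6 months females. With TMM-scaled CPM, the values that changed call or sign were -0.12 for let-7i and let-7g in 6 months females, 0.023 for let-7i and let-7g in 6 months males, 0.34 for let-7i and let-7g in 10 months males and 0.49 for let-7g and mir-98 in 10 months females, the last of which then passed. Without the libraries left out of the fits, the values that changed call or sign were 0.45 for let-7i and let-7g in 6 months males, 0.097 for let-7i and let-7g in 10 months females, 0.23 for let-7i and let-7g in 10 months males, 0.47 for let-7i and mir-98 in 10 months males and 0.36 for let-7g and mir-98 in 10 months males, of which the relation at 6 months has the same r and lost its call only through the adjustment over 12 relations.

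The replicate numbers do not pair the libraries: same-numbered libraries of different groups had a median r of their deviations of -0.014 at 6 months (264 pairs) and -0.0025 at 10 months (221). With the replicate number as a block, the sign changed for let-7i, Q50 against its WT at 6 months (-0.0016) and let-7g, the combined CAG slope (Z) (0.033), and no call of a member changed.

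Leaving out 1 library at a time gave 2760 values, of which 2406 kept direction and call, 10 lost the call, 15 gained one and 329 changed sign without passing. The 10 that ended the call of let-7i for sex at 10 months were Q140 female 3, Q140 female 4, Q140 male 2, Q20 male 4, Q50 female 4, Q50 male 2, Q92 female 2, Q92 male 1, Q92 male 4 and WT of the Q50 line female 1 (each named by group, sex and replicate), with values of -0.058 to -0.050 (adjusted p = 0.0542 to 0.0815). The 15 that gave it a call at 6 months were Q140 female 1, Q140 female 3, Q20 female 1, Q20 female 2, Q20 female 3, Q20 female 4, Q20 male 3, Q50 female 2, Q50 male 3, Q92 female 2, Q92 female 3, Q92 male 1, Q92 male 4, WT of the Q20 line female 3 and WT of the Q50 line female 1, with -0.11 to -0.082 (adjusted p = 0.00739 to 0.0337). The ranges were let-7g -0.052 to 0.027, let-7i -0.11 to -0.049 and mir-98 -0.032 to 0.042 for sex at 6 months, let-7g -0.013 to 0.045 and let-7i -0.017 to 0.020 for Q20 against its WT at 6 months, let-7g -0.066 to 0.025, let-7i -0.015 to 0.029 and mir-98 -0.052 to 0.032 for Q50 against its WT at 6 months, let-7g -0.037 to 0.064, let-7i -0.00037 to 0.027 and mir-98 -0.031 to 0.060 for Q50 against controls at 6 months, mir-98 -0.0067 to 0.047 for Q140 against controls at 6 months, let-7i -0.0033 to 0.031 for CAG slope at 6 months and let-7g -0.030 to 0.016, let-7i -0.10 to -0.050 and mir-98 -0.048 to 0.0033 for sex at 10 months. Further ranges were let-7g -0.040 to 0.044, let-7i -0.038 to 0.022 and mir-98 -0.0020 to 0.087 for Q20 against its WT at 10 months, let-7g -0.016 to 0.085, let-7i -0.015 to 0.035 and mir-98 -0.0022 to 0.060 for Q50 against its WT at 10 months, let-7g -0.030 to 0.043 and let-7i -0.039 to 0.0034 for Q50 against controls at 10 months, let-7g -0.064 to 0.024, let-7i -0.029 to 0.022 and mir-98 -0.042 to 0.018 for Q92 against controls at 10 months, let-7i -0.012 to 0.034 for age, let-7g -0.042 to 0.035 and let-7i -0.0094 to 0.051 for sex by age interaction and let-7g -0.43 to 0.40 and mir-98 -0.66 to 0.099 for the combined CAG slope (Z).

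Hairpins called, with the range over these alternatives in parentheses, were 143 (67 to 150) for sex at 6 months, 173 (33 to 180) for sex at 10 months, 239 (177 to 247) for age, 4 (0 to 12) for Q92 against controls at 10 months, 5 (0 to 21) for Q140 against controls at 10 months, 8 (0 to 18) for CAG slope at 10 months and 0 (0 to 4) for sex by age interaction. Within L tags few libraries remain.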
